A study of Bos taurus with 5 samples.

Results

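The tricarboxylic acid (TCA) cycle was followed through 9 mRNAs for enzymes of the mitochondrial cycle, chosen by name: CS, IDH3A, IDH3B, IDH3G, OGDH, SUCLG1, SUCLA2, FH and MDH2. All 9 were found, as 9 of the 27607 genes in the deposited table, and all 9 passed the filter on low values that 12448 genes passed. The samples were 5 pools of cattle embryos (Bos taurus) produced in vitro, 2 pools sired by low-performing bulls and 3 pools sired by high-performing bulls, with 100 embryos in each pool. The sample labels place all embryos at the 4-cell stage, and the treatment field names recombinant Wnt5A for every pool in both groups, with no dose and nothing further on how or whether each pool received it. The labels define neither performance nor the number of bulls behind a pool. Nothing in the labels says that pools of a group came from separate bulls or fertilisations, so p-values here reflect only how far these pools scatter, which can be technical.

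The cycle oxidises the acetyl group of acetyl-CoA to carbon dioxide in the mitochondrial matrix and passes the electrons, as NADH and as reduced flavin, to the respiratory chain. Its flux is classically controlled at citrate synthase, NAD-dependent isocitrate dehydrogenase and α-ketoglutarate dehydrogenase. Cleavage-stage mammalian embryos use pyruvate and other mitochondrial fuels for most of their ATP and in cattle still carry much mRNA made in the oocyte. These are bulk pools, in which fewer cells and less RNA per cell cannot be told apart.

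Between 67248924 and 113100809 reads fell in genes per pool, as recovered from the RPKM values. The 9 enzymes took between 79493 and 128188 reads in a pool, and the least abundant of them, IDH3B, had 294 to 620 reads. Low-performing pool 2 stood apart: across the 12448 genes its log2 values correlated at 0.929 to 0.957 (Pearson) with the high-performing pools, against 0.977 to 0.993 for low-performing pool 1. The 2 low-performing pools correlated with each other at 0.976, below low-performing pool 1 with any high-performing pool. High-performing pool 1 correlated at 0.993 with low-performing pool 1, and at 0.989 and 0.992 with high-performing pools 2 and 3. All 10 egg and cleavage-embryo markers were at or above 1 RPKM in every pool, and their summed level was 16674 and 22042 RPKM in low-performing pools 1 and 2, against 9863 to 13854 RPKM in the high-performing pools. BTG4 alone made up 70.9% and 76.9% of this sum in the low-performing pools and 61.0% to 67.5% in the high-performing pools. Without it the sums were 4858 and 5099 RPKM, against 3843 to 4498 RPKM, and NLRP5 and DPPA3 were lowest in low-performing pool 2. Of 10 sperm markers 2, ACRV1 and SPA17, were above that level in every pool, TNP1 and PDHA2 were at 0 in every pool, and the list summed to 16.6 and 28.9 RPKM in the low-performing pools and 10.1 to 11.5 RPKM in the high-performing pools. The 15 cumulus and granulosa markers, 7 of them at or above 1 RPKM in every pool, summed to 208 and 205 RPKM in the low-performing pools and 215 to 231 RPKM in the high-performing pools, of which STAR made up 68.2% to 77.3%. The 5 blood markers, with HBB at 0 in every pool, summed to 19.1 and 16.5 RPKM in the low-performing pools and 16.2 to 18.7 RPKM in the high-performing pools. The part of these marker levels in the results below was not tested.

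The enzymes of a single cycle differed widely in mRNA level. RPKM divides reads by gene length and by library size, so levels were set side by side between genes. A trend over gene length in the difference between the groups remained, as described below, and its part in the order was not tested. Citrate synthase was the most abundant, at a mean of 224 RPKM over the 5 pools, and higher than 97.5% of all genes tested. MDH2 followed at 112 RPKM, FH at 56.6, SUCLA2 at 44.0, SUCLG1 at 18.7, IDH3A at 13.2, IDH3G at 8.13, OGDH at 3.93 and IDH3B at 2.93 RPKM. The order was identical in 4 of the 5 pools, and low-performing pool 2 differed only by having IDH3B above OGDH. Ranges over pools overlapped for FH and SUCLA2 and for OGDH and IDH3B, and for no other neighbours in the order, although FH was above SUCLA2 within all 5 pools.

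**Figure D1:**
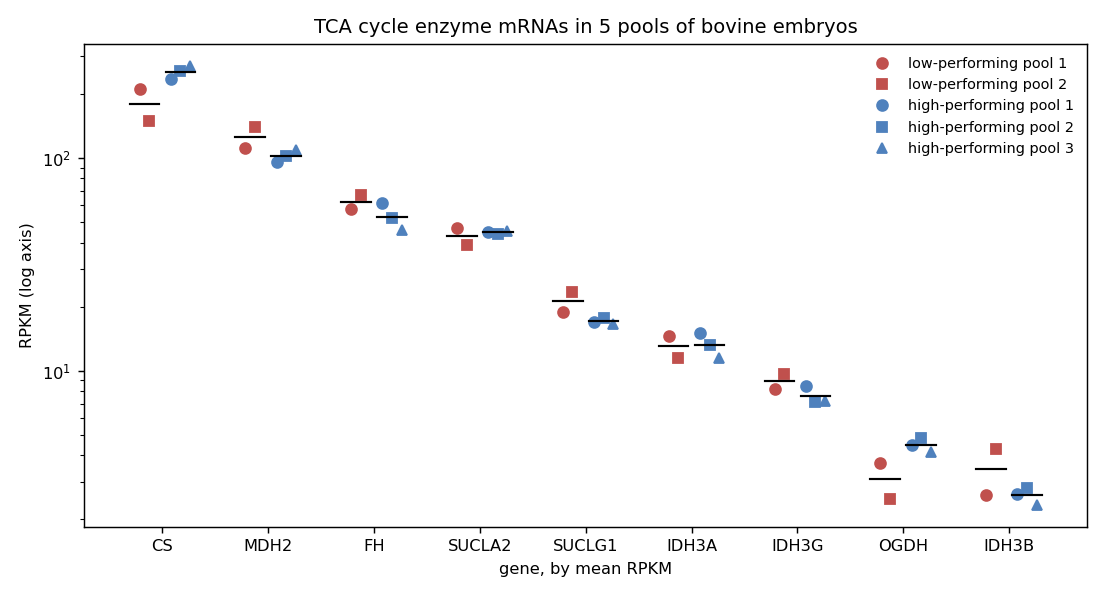
RPKM of each TCA cycle enzyme mRNA (vertical log axis) in 2 low-performing pools (red) and 3 high-performing pools (blue), with bars at the group means. Citrate synthase lies at 149 to 271 RPKM and IDH3B at 2.34 to 4.27 RPKM, and low-performing pool 2 (red square) is the lowest of all pools for CS and OGDH.

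Citrate synthase, which joins acetyl-CoA to oxaloacetate to open the cycle, had lower values in both low-performing pools than in any high-performing pool. The gene CS (ENSBTAG00000004371) lies on chromosome 5 from position 57042171 to position 57065001 and has 11 exons; all positions are those of ARS-UCD1.2. Its mRNA had 210 and 149 RPKM in low-performing pools 1 and 2, against 235, 256 and 271 RPKM in high-performing pools 1, 2 and 3. Both low-performing pools lay below every high-performing pool, and low-performing pool 2 was the lowest. CS averaged 180 ± 42.9 RPKM (SD, n = 2) over low-performing and 254 ± 18.0 RPKM (SD, n = 3) over high-performing pools, a ratio of 0.709. On the log2(RPKM + 1) scale the difference, low-performing minus high-performing, was -0.51 ± 0.18 (SE), with a 95% interval of -0.93 to -0.097. The unadjusted p was 0.0221 in limma, which fits a linear model to each gene and shares variance information across genes. The Benjamini-Hochberg adjusted limma p over the 12448 genes was 0.101. In the authors' deposited table CS had a log2 fold change of -0.50 with an FDR of 0.0763. The difference was -0.27 without low-performing pool 2 and -0.76 without low-performing pool 1.

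NAD-dependent isocitrate dehydrogenase is built from the catalytic α subunit of IDH3A and from the subunits of IDH3B and IDH3G, of which the γ subunit is the site of allosteric regulation. IDH3A (ENSBTAG00000006227, chromosome 21, positions 30538294 to 30554581) had 14.6 and 11.5 RPKM in the low-performing pools, against 15.01, 13.2 and 11.5 RPKM in the high-performing pools. The groups overlapped, with a log2 difference of -0.021 ± 0.17 (SE), a 95% interval of -0.41 to 0.37 and a limma adjusted p of 0.936. IDH3B (ENSBTAG00000018813, chromosome 13, positions 52514469 to 52519429) had 2.59 and 4.27 RPKM in the low-performing pools, against 2.64, 2.82 and 2.34 RPKM in the high-performing pools. Low-performing pool 2 alone was high, and low-performing pool 1 lay among the high-performing pools. The log2 difference of IDH3B was 0.28 ± 0.18 (SE; limma adjusted p = 0.303), and without low-performing pool 2 it was -0.0022. IDH3G (ENSBTAG00000001059, X chromosome, positions 37002947 to 37011510) had 8.24 and 9.60 RPKM in the low-performing pools, against 8.48, 7.12 and 7.20 RPKM in the high-performing pools, a log2 difference of 0.21 ± 0.14 (SE; limma adjusted p = 0.327), or 0.11 once low-performing pool 2 was left out. The exons of IDH3B share 2 bases with those of NOP56 on the other strand, and no source used here states the strand setting of the counting.

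The α-ketoglutarate dehydrogenase complex makes succinyl-CoA, and OGDH is its decarboxylase subunit. OGDH (ENSBTAG00000006029, chromosome 4, positions 76758582 to 76844759, 35 exons) had 3.69 and 2.49 RPKM in the low-performing pools, against 4.47, 4.84 and 4.14 RPKM in the high-performing pools. As for CS, both low-performing pools lay below all 3 high-performing pools, and pool 2 was the lowest. OGDH averaged 3.09 ± 0.849 RPKM (SD, n = 2) over low-performing and 4.48 ± 0.350 RPKM (SD, n = 3) over high-performing pools, a ratio of 0.690. The log2 difference was -0.44 ± 0.16 (SE), with a 95% interval of -0.82 to -0.055, an unadjusted p of 0.0301 and a limma adjusted p of 0.113. The authors' deposited table gave OGDH a log2 fold change of -0.54 and an FDR of 0.108. Without low-performing pool 2 the log2 difference was -0.22, and without low-performing pool 1 it was -0.65. OGDHL, the related gene for a second decarboxylase form, was the more abundant form at 8.71 and 7.16 RPKM in the low-performing pools and 8.05 to 8.96 RPKM in the high-performing pools, with a log2 difference of -0.11 ± 0.14 (SE; limma adjusted p = 0.588).

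Succinyl-CoA synthetase pairs the shared α subunit of SUCLG1 with a β subunit that fixes the nucleotide it charges, SUCLA2 for ATP and SUCLG2 for GTP. SUCLG1 (ENSBTAG00000006075, chromosome 11, positions 50516577 to 50551425) had 18.9 and 23.5 RPKM in the low-performing pools, against 16.99, 17.6 and 16.5 RPKM in the high-performing pools. Both low-performing pools lay above all high-performing pools, with a log2 difference of 0.29 ± 0.14 (SE), a 95% interval of -0.037 to 0.62 and a limma adjusted p of 0.175. It was 0.14 without low-performing pool 2 and 0.44 without low-performing pool 1. SUCLA2 (ENSBTAG00000006759, chromosome 12, positions 17809328 to 17853938) had 46.8 and 39.1 RPKM in the low-performing pools, against 45.0, 43.8 and 45.2 RPKM in the high-performing pools. Low-performing pool 1 was the highest of the 5 pools and low-performing pool 2 the lowest, for a log2 difference of -0.060 ± 0.13 (SE), a 95% interval of -0.37 to 0.25 and a limma adjusted p of 0.764. The GTP-linked β subunit SUCLG2 was more abundant than SUCLA2 in all 5 pools, at 115 and 101 RPKM in the low-performing pools and 113, 119 and 101 RPKM in the high-performing pools.

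Fumarase and malate dehydrogenase close the cycle by turning fumarate into malate and malate into oxaloacetate. FH (ENSBTAG00000021688, chromosome 16, positions 35260924 to 35288027) had 57.8 and 66.6 RPKM in the low-performing pools, against 61.1, 52.1 and 45.7 RPKM in the high-performing pools. The groups overlapped, and the log2 difference was 0.23 ± 0.16 (SE; limma adjusted p = 0.32). MDH2 (ENSBTAG00000009462, chromosome 25, positions 34254236 to 34266939), the mitochondrial malate dehydrogenase, had 111 and 140 RPKM in the low-performing pools, against 95.7, 102 and 108 RPKM in the high-performing pools. Both low-performing pools lay above all high-performing pools, low-performing pool 1 by a small margin. MDH2 averaged 126 ± 20.2 RPKM (SD, n = 2) over low-performing and 102 ± 6.33 RPKM (SD, n = 3) over high-performing pools, and the log2 difference was 0.29 ± 0.15 (SE), with a 95% interval of -0.062 to 0.64 and a limma adjusted p of 0.203. Without low-performing pool 2 the difference was 0.12 for MDH2 and 0.13 for FH, and without low-performing pool 1 it was 0.45 and 0.33.

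Counted together, the enzymes did not move one way. Of the 9, 5 lay above 0 and 4 below, with a median log2 difference of 0.21 against -0.031 over all 12448 genes. That median was 0.11 without low-performing pool 2, 0.31 without low-performing pool 1, 0.039 after removal of a trend over gene length (0.0037 over all genes) and 0.058 on the TPM scale (-0.19 over all genes). None of the 9 passed limma at an adjusted p under 0.05, and 0% of all genes tested did, with a smallest adjusted p of 0.0829. At an unadjusted p under 0.05, 2 of the 9 were called, CS and OGDH, both lower, against 34.9% of all genes called in either direction and 15.9% called lower. The pools did not overlap between the groups for 4 of the 9, with CS and OGDH lower (29.3% of all genes) and SUCLG1 and MDH2 higher (29.4% of all genes), against 58.7% of all genes in either direction. None of the 9 had an FDR under 0.05 in the authors' deposited table, where 16.1% of the 12448 genes did. Counted in either direction, the members' shares at an unadjusted p under 0.05 and without overlap were below those of all genes. With only 9 members each share rests on few genes, and the gap was not tested. The median size of the difference, taken without its sign, was 0.28 for the 9 enzymes and 0.27 for all genes on the log2 scale. Both CS and OGDH lost the unadjusted call without low-performing pool 2, where 0 of the 9 were called against 14.5% of all genes. They lost it also without high-performing pool 2 (0 of the 9, against 18.5% of all genes) and without high-performing pool 3 (0 of the 9, against 20.1%), with CS then at -0.51 and -0.47 and OGDH at -0.39 and -0.48. Without low-performing pool 1, the remaining low-performing pool is assumed to vary like the others, and CS, IDH3B, OGDH, SUCLG1 and MDH2 then had limma adjusted p-values of 0.00887 to 0.0342, while 43.7% of all genes passed.

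**Figure D2:**
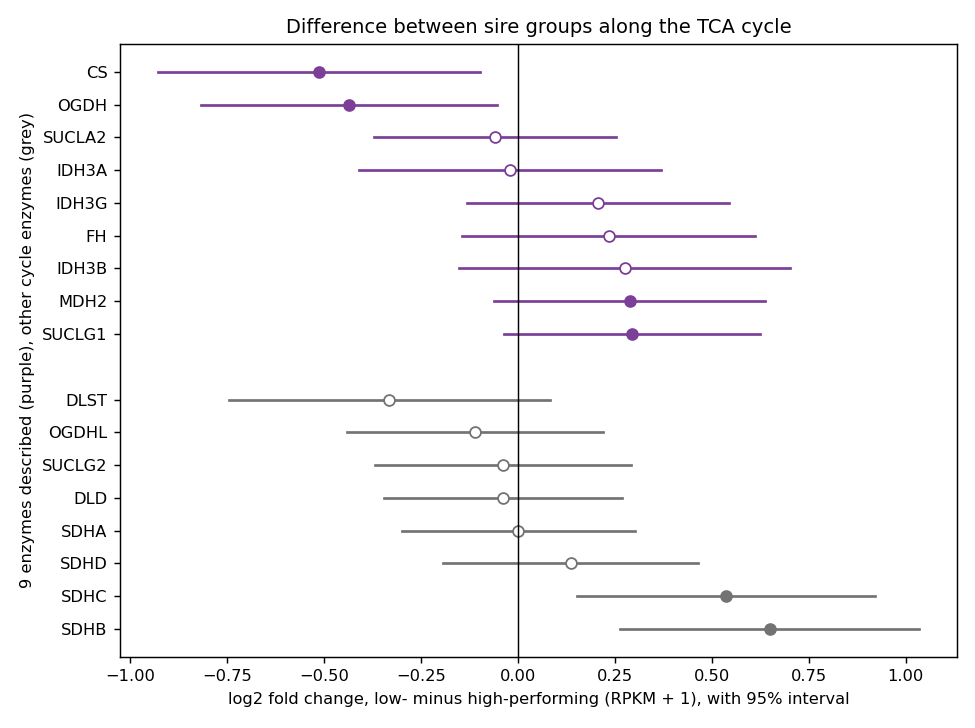
Log2 difference in RPKM + 1, low-performing minus high-performing pools (horizontal axis), with its 95% limma interval, for the 9 enzymes (purple) and 8 other enzymes or subunits of the cycle (grey). Filled points mark genes whose pools did not overlap between the groups: CS at -0.51 and OGDH at -0.44 lie to the left, SUCLG1, MDH2, SDHC and SDHB to the right.

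The makeup of the enzyme mRNA pool was described by the share of CS in it. Summed over the 9 genes, levels were 474 and 446 RPKM in the low-performing pools, against 484, 500.0 and 511 RPKM in the high-performing pools. CS made up 44.3% and 33.5% of this sum in the low-performing pools, against 48.5%, 51.2% and 52.9% in the high-performing pools. The other 8 enzymes together had 264 and 297 RPKM in the low-performing pools, against 249, 244 and 241 RPKM in the high-performing pools. This held on the RPKM scale. Scaled to each library's summed RPKM (TPM), the other 8 enzymes had 499 and 500.3 TPM in the low-performing pools, against 501, 472 and 501 TPM in the high-performing pools, and the groups overlapped. The total over the 9 was 896 and 752 TPM in the low-performing pools, against 972, 967 and 1065 TPM in the high-performing pools, so that both low-performing pools were below all high-performing pools on either scale. The share of CS within the sum is the same on both scales, and no sum was tested since the genes were chosen with results of these data known.

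Ratios within a pool, in which a scaling of the whole library cancels, were compared for 11 pairs of enzymes or subunits. A trend over gene length does not cancel between genes of unlike length. The median log2 difference of tested genes within a factor of 1.2 in length was -0.11 for CS and 0.27 for MDH2. It was 0.0039 for SUCLA2 and 0.12 for SUCLG1, and the part of length in the ratios was not tested. With 5 pools there are 10 ways to split them into 2 and 3, so the exact two-sided permutation test cannot give a p under 0.1. The CS to MDH2 ratio was 1.89 and 1.07 in the low-performing pools, against 2.45, 2.50 and 2.50 in the high-performing pools. The high-performing pools were nearly identical and the low-performing pools far apart. The difference in mean log2 ratio was -0.81, with p = 0.1 in the exact permutation test, the smallest possible, and 0.367 after Benjamini-Hochberg adjustment over the 11 ratios. It was -0.40 without low-performing pool 2. The SUCLA2 to SUCLG1 ratio, of the ATP-linked β subunit to its α partner, was 2.47 and 1.67 in the low-performing pools, against 2.65, 2.49 and 2.74 in the high-performing pools. Here low-performing pool 1 lay just under the lowest high-performing pool, for a log2 difference of -0.37 (exact permutation p = 0.1, adjusted 0.367) that was -0.085 without low-performing pool 2. The ratio of CS to ACLY, the cytosolic enzyme that splits citrate again, was 4.15 and 3.73 in the low-performing pools, against 4.82, 4.998 and 4.71 in the high-performing pools. This was the third ratio whose groups did not overlap, with a log2 difference of -0.30 (exact permutation p = 0.1, adjusted 0.367), and it ranged only from -0.38 to -0.22 as each pool was left out.

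Within isocitrate dehydrogenase the IDH3A to IDH3B ratio was 5.62 and 2.69 in the low-performing pools, against 5.68, 4.66 and 4.92 in the high-performing pools. Low-performing pool 1 sat with the high-performing pools and low-performing pool 2 alone was low, as it also was for IDH3A to IDH3G, at 1.77 and 1.197 in the low-performing pools against 1.77, 1.85 and 1.599 in the high-performing pools. Exact permutation p-values were 0.4 for both. The balance of β subunits in succinyl-CoA synthetase differed least of the 11 ratios between the groups: SUCLA2 stood at 0.407 and 0.388 of SUCLG2 in the low-performing pools, against 0.398, 0.368 and 0.448 in the high-performing pools, a log2 difference of -0.021. MDH2 exceeded MDH1, the cytosolic malate dehydrogenase of the malate-aspartate shuttle, 20.4-fold and 17.5-fold in the low-performing pools and 17.3-fold to 23.6-fold in the high-performing pools. IDH3A exceeded IDH2, the NADP-dependent mitochondrial isocitrate dehydrogenase, 19.0-fold and 9.49-fold in the low-performing pools and 8.77-fold to 12.7-fold in the high-performing pools, but IDH2 was near the filter at 0.768 to 1.501 RPKM. For the ratios of IDH3B to IDH3G, FH to MDH2 and OGDH to DLST the groups overlapped as well, with log2 differences of 0.13, -0.052 and -0.21 and exact permutation p-values of 0.6, 0.8 and 0.5.

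**Figure D3:**
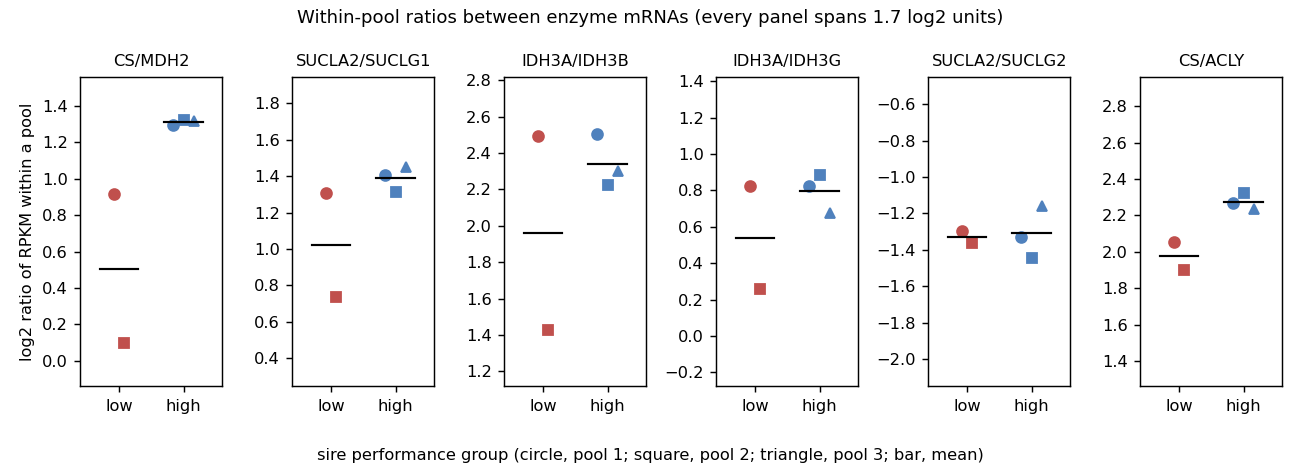
Log2 ratios of RPKM between enzyme mRNAs within each pool, for low-performing (red, left) and high-performing (blue, right) pools, with bars at group means. The 3 high-performing pools lie at 1.295 to 1.32 for CS to MDH2, and low-performing pools 1 and 2 at 0.92 and 0.096, while SUCLA2 to SUCLG2 overlaps.

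Gene length went with the difference between the groups across the whole table. Among the 12 equal groups of genes by length, the median log2 difference was 0.47 in the shortest and -0.32 in the longest. The median over tested genes within a factor of 1.2 of its length was -0.11 for CS (2943 bases), against its own -0.51, and -0.28 for OGDH (5642 bases), against its own -0.44. For MDH2, the shortest of the 9 at 1295 bases, it was 0.27, against its own 0.29, and for SUCLG1 (1672 bases) it was 0.12, against 0.29. With a smooth trend over gene length removed from each pool, the log2 difference of CS was -0.40 (limma adjusted p = 0.12, unadjusted p = 0.0228), that of OGDH was -0.15 and that of MDH2 was 0.039. CS then remained the single member at an unadjusted p under 0.05, against 30.6% of all genes. IDH3A and SUCLA2, of middle length at 2001 and 2137 bases, stood near their length medians of 0.039 and 0.0039. The part of length in these values beyond this was not tested.

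**Figure D4:**
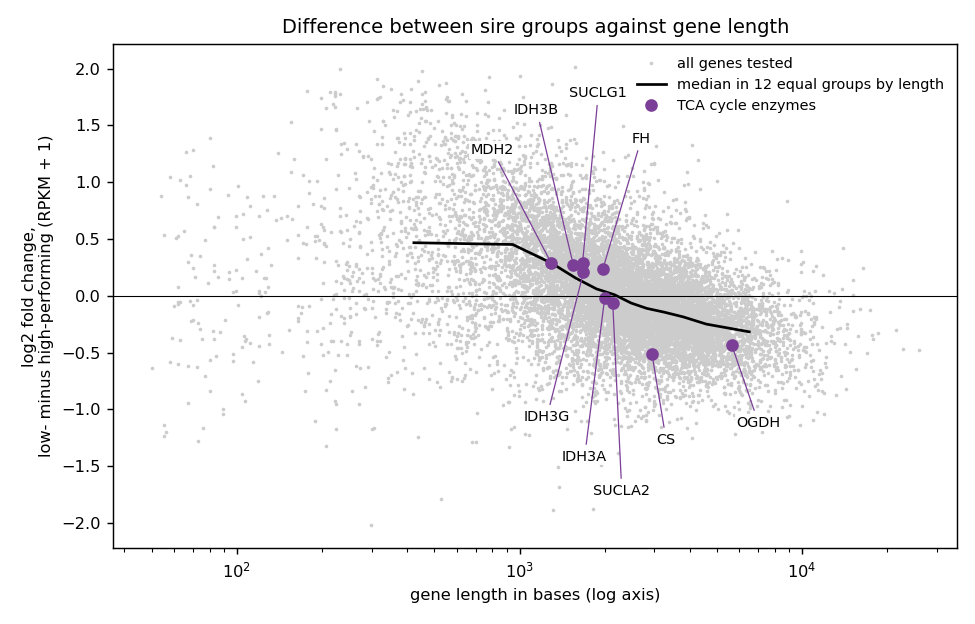
Log2 difference between low-performing and high-performing pools (vertical axis) against gene length (horizontal log axis) for 12448 tested genes (grey), with the median in 12 equal groups by length (line) and the 9 enzymes (purple). MDH2 lies on the line at 0.29, while CS at -0.51 lies below it.

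The rest of the cycle was described from 8 further genes, of which none passed limma at an adjusted p under 0.05, 2 were higher at an unadjusted p under 0.05 and none was lower (19.0% and 15.9% of all genes). Those 2 were subunits of succinate dehydrogenase, the enzyme shared with the respiratory chain. SDHB, its iron-sulfur subunit, had 33.6 and 42.5 RPKM in the low-performing pools, against 27.4, 21.5 and 22.7 RPKM in the high-performing pools, a log2 difference of 0.65 ± 0.16 (SE; limma adjusted p = 0.0829). SDHC, a membrane anchor, had a log2 difference of 0.54 ± 0.16 (SE; limma adjusted p = 0.0875). The catalytic subunit SDHA stood at 0.0011 ± 0.13 (SE) with overlapping groups. DLST and DLD, the other subunits of the OGDH complex, had differences of -0.33 ± 0.18 (SE) and -0.039 ± 0.13 (SE). Over the 8 genes the median was -0.019, which became 0.033 on leaving out low-performing pool 2 and 0.022 on removing the length trend.

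Genes that feed pyruvate into the cycle were split. Of 13 tested, 2 were higher and 4 lower at an unadjusted p under 0.05, against 19.0% and 15.9% of all genes. None passed at an adjusted p under 0.05, and the median log2 difference was -0.30. Both that were higher encode the mitochondrial pyruvate carrier. MPC2 had 31.5 and 54.0 RPKM in the low-performing pools, against 26.6, 18.5 and 21.7 RPKM in the high-performing pools, a log2 difference of 0.88 ± 0.25 (SE; limma adjusted p = 0.0837), and MPC1 had one of 0.75 ± 0.22 (SE; limma adjusted p = 0.0853). The carrier genes are short, at 762 and 330 bases. The 4 lower genes, singled out after their values were seen, were the pyruvate dehydrogenase kinases PDK1 and PDK2, the phosphatase PDP2 and the phosphatase regulator PDPR, at -0.43 to -0.56. The inhibiting kinases PDK1 and PDK2 and the activating phosphatase PDP2 were on the same side. Without low-performing pool 2 the median was -0.098. Removing the length trend gave a median of -0.087, with 1 higher and 3 lower at an unadjusted p under 0.05 (30.6% of all genes in either direction).

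Of 7 genes tested for anaplerosis (refilling of the cycle) and carrier shuttles, 4 lay below 0 and 3 above. At an unadjusted p under 0.05, 3 were lower (15.9% of all genes) and none higher (19.0%), with a median log2 difference of -0.25. Leaving out low-performing pool 2 gave a median of -0.053. Removing the length trend gave a median of -0.050, with 3 called lower (30.6% of all genes called in either direction). GLUD1, which turns glutamate into α-ketoglutarate, had 104 and 64.6 RPKM in the low-performing pools, against 114, 142 and 132 RPKM in the high-performing pools, a log2 difference of -0.65 ± 0.21 (SE; limma adjusted p = 0.0958). SLC25A1, the mitochondrial citrate carrier, had 43.3 and 26.4 RPKM in the low-performing pools, against 45.6, 60.8 and 53.9 RPKM in the high-performing pools, a log2 difference of -0.63 ± 0.23 (SE; limma adjusted p = 0.105). Of 8 isoforms outside the cycle, 6 lay below 0 and 2 above. At an unadjusted p under 0.05, 1 was lower (15.9% of all genes) and none higher (19.0%). The lower gene was the malic enzyme ME2 at -0.45 ± 0.18 (SE; limma adjusted p = 0.127). The next by p was ME3 at 0.25 ± 0.11 (SE; limma adjusted p = 0.158). The 8 isoforms had a median of -0.17, which became -0.033 on leaving out low-performing pool 2 and likewise on removing the length trend.

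Genes for lipoate attachment, the cofactor that OGDH's complex needs, and for succinate dehydrogenase assembly had mostly positive differences. Of 8 tested, 5 were higher (19.0% of all genes) and none lower (15.9%) at an unadjusted p under 0.05. None passed at an adjusted p under 0.05. The median log2 difference was 0.49, or 0.40 without low-performing pool 2. Removing the length trend gave 0.29, with 3 called, against 30.6% of all genes in either direction. SDHAF3, an assembly factor, had 18.4 and 37.4 RPKM in the low-performing pools, against 14.8, 9.01 and 10.01 RPKM in the high-performing pools, a log2 difference of 1.18 ± 0.31 (SE; limma adjusted p = 0.0829), and SDHAF2 had one of 0.61 ± 0.18 (SE; limma adjusted p = 0.0857). A small set of 14 nuclear genes for core subunits of the respiratory complexes had a median of 0.48, or 0.27 without low-performing pool 2. At an unadjusted p under 0.05, 9 were higher and none lower, against 19.0% and 15.9% of all genes. Removing the length trend gave this set a median of 0.29, with 6 called, against 30.6% of all genes in either direction. NDUFS3 and COX4I1 of that set stood at 0.73 ± 0.18 (SE) and 1.14 ± 0.29 (SE), each with a limma adjusted p of 0.0829. Of 13 glycolysis genes, 5 lay above 0 and 8 below, around a median of -0.064 (-0.22 if low-performing pool 2 is left out, 0.15 if pool 1 is). At an unadjusted p under 0.05, 3 were higher and 2 lower, against 19.0% and 15.9% of all genes. Hexokinase HK1 stood at 0.58 ± 0.16 (SE; limma adjusted p = 0.0834) and GAPDH at -0.52 ± 0.16 (SE; limma adjusted p = 0.0876). The median of the 9 enzymes, 0.21, lay between those of glycolysis and of the respiratory subunits, and differences between these lists were not tested.

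**Figure D5:**
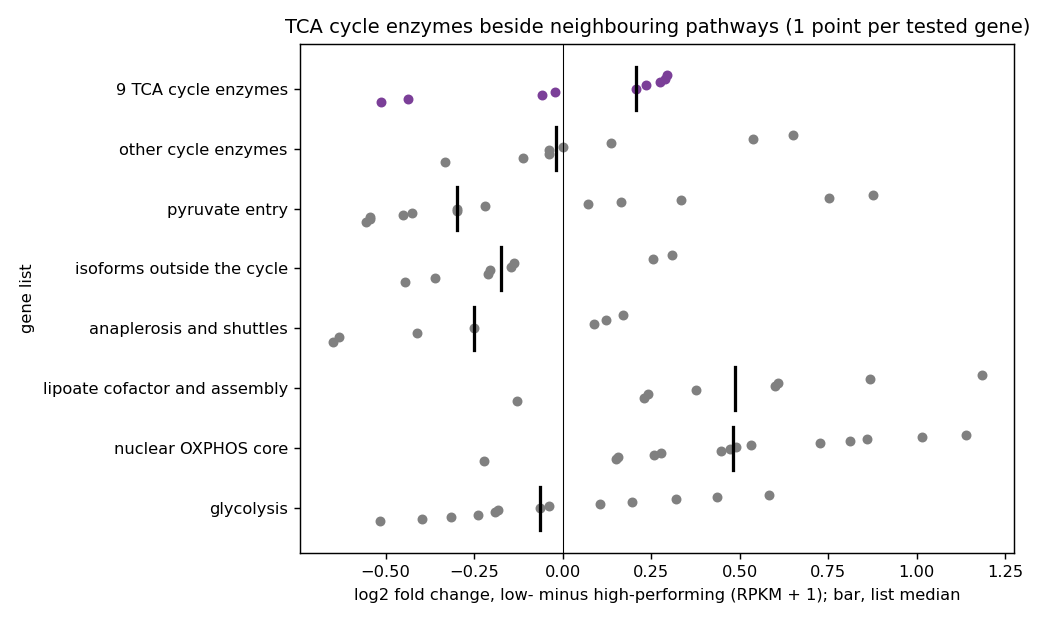
Log2 difference between low-performing and high-performing pools (horizontal axis) for each tested gene of 8 lists, with a bar at each list's median. The 9 enzymes (purple) spread from -0.51 to 0.29 around a median of 0.21, beside medians of 0.48 for respiratory subunits and -0.064 for glycolysis.

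Among the enzymes themselves, likeness over the 5 pools was measured as the root mean square difference between log2(RPKM + 1) values centred on each gene's mean. The closest pairs were SUCLG1 with MDH2 at 0.072 and IDH3G with FH at 0.074, and CS was closest to OGDH, at 0.11. The least alike were CS and IDH3B at 0.52. Among all genes tested the closest to CS were PELI1, a ubiquitin ligase, at 0.0087 and PTBP1, a splicing regulator, at 0.012. The closest named gene to OGDH was the transcription factor SP2 at 0.0082, that to MDH2 was the ubiquitin-conjugating enzyme UBE2E2 at 0.011, and that to SUCLA2 was GANAB, a glucosidase of the endoplasmic reticulum, at 0.014. For IDH3A it was FECH, the last enzyme of haem synthesis, at 0.019, for IDH3B it was ISOC2 at 0.042, for IDH3G TMEM45A at 0.015, for SUCLG1 UTP3 at 0.016 and for FH DOC2G at 0.018. With 12448 genes and 5 pools, such near matches are a description of these libraries.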

How the data were processed

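The deposited table gives RPKM per gene and library, computed by the authors. FastQC, featureCounts, edgeR and the cattle build ARS-UCD1.2 are named in the submitters' processing notes; no aligner, version, strand setting or treatment of multi-mapping reads is stated in the sources used here. RPKM times length in kilobases summed to 1000000 in every library, and 100% of values were whole reads within a relative tolerance of 1e-06, which gave the depths. The authors also deposited log2 fold changes, a likelihood ratio score, p-values and an FDR; their log2 values have a positive sign for genes higher in low-performing pools.

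Differences were tested on log2(RPKM + 1) in limma 3.58.1 under R 4.3.3, with the trend option, two-sided. Genes that reached 1 RPKM in 2 or more of the 5 libraries were kept, with Benjamini-Hochberg adjustment over all 12448 genes. A pseudocount of 1 understates changes of low genes. A positive difference means higher in low-performing pools. The members and the gene lists were chosen with earlier results of these data known. In the 7 other lists, the text names the 2 tested genes with the smallest p and others beside them after their values were seen; 1 listed gene, SLC25A10, had no row of that name, and some further genes are not reported here. Exact permutation tests (two-sided) compared ratios. No sequences were used here. Alternatives were pseudocounts of 0.5 and 0.1, other filters, quantile and trimmed-mean scaling, a loess length trend (span 0.5), no intensity trend, limma voom on recovered reads, a replicate block, each library left out and, added after seeing the data, TPM, which scales each library to its summed RPKM. Figures used Python 3.11.15 and matplotlib 3.10.9.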

Additional observations from a re-analysis of the deposited data

How the results depend on the processing

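With all 5 pools and no block, no enzyme changed direction under any pseudocount, filter, scaling or limma setting tried, and none reached an adjusted p under 0.05. The number at an unadjusted p under 0.05, 2 in the main analysis, was 1 with no filter on low values (20.9% of all genes), 1 with a mean RPKM of at least 5 (which removes OGDH and IDH3B; 38.9%), 1 with the length trend removed (30.6%) and 0 to 5 as each pool was left out (14.5% to 53.2%). The number whose pools did not overlap was 4, with 2 higher and 2 lower. With the length trend removed it was 2, both lower (53.4% of all genes). On the TPM scale it was 3, with 1 higher and 2 lower (59.3%). It was 4 to 9 as each pool was left out (63.8% to 85.1%, the highest of both without low-performing pool 1). Over all genes limma called 0 (4348 at an unadjusted p under 0.05), limma voom called 0 (4413 unadjusted), TPM scaling called 696, and leaving out a pool gave 0 to 5436, the highest without low-performing pool 1. TPM moved the median of all genes to -0.19 and the unadjusted calls to 1426 higher and 3098 lower, against 2367 and 1981. CS was then at -0.68 and OGDH at -0.63. TPM divides by each library's summed RPKM, which was 529029 and 593506 in low-performing pools 1 and 2. In high-performing pools 1, 2 and 3 it was 497870, 516911 and 480455, and why these sums differ was not tested.

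As each pool was left out, IDH3A ranged from -0.18 to 0.14, IDH3B from -0.0022 to 0.55 and SUCLA2 from -0.19 to 0.066, turning in sign without low-performing pool 2 (IDH3A also without high-performing pool 1, at 0.068). The ratio differences that turned ranged from -0.91 to 0.15 for IDH3A to IDH3B, -0.54 to 0.027 for IDH3A to IDH3G, -0.12 to 0.38 for IDH3B to IDH3G, -0.088 to 0.054 for SUCLA2 to SUCLG2, -0.18 to 0.057 for MDH2 to MDH1, -0.20 to 0.10 for FH to MDH2 and -0.24 to 0.76 for IDH3A to IDH2. Low-performing pools 1 and 2 share numbers with high-performing pools, but nothing shows a shared origin. Deviations of same-numbered pools from their group means correlated at -0.48 and -0.26. With 2 low-performing pools, the deviations of 1 are the exact opposite of the other's, so these values cannot decide on pairing. With the replicate number as a block, where high-performing pool 3 has no partner and does not enter the difference, 0 enzymes were called at an unadjusted p under 0.05, against 2340 genes (18.8%), and 833 genes but 0 enzymes at an adjusted p under 0.05. The planned edgeR test was not run, since the values are RPKM.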
